A study of Mus musculus with 9 samples.

Results

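The genes described here encode the nuclear-encoded subunits of the mitochondrial respiratory chain and ATP synthase. They were chosen by name, as every gene whose symbol in the array's platform annotation begins with Ndufa, Ndufb, Ndufc, Ndufs, Ndufv, Uqcr, Cox4i, Cox5, Cox6, Cox7, Cox8 or Atp5, together with Sdha, Sdhb, Sdhc, Sdhd and Cyc1. This gave 61 of the 14507 genes measured: 28 subunits of complex I, 4 of complex II, 5 of complex III, 10 of complex IV, 10 of complex V and 4 genes that share the names without being subunits. Those 4 are Ndufaf1 and Ndufaf2, assembly factors of complex I, and Dmac2 and Dmac2l, annotated on the array as Atp5sl and Atp5s. The arrays compare 3 compartments of mouse tail skin: the sebaceous gland (SG), the hair follicle (HF) and the epidermis between follicles, or interfollicular epidermis (IFE). Each was microdissected from tail epidermis, and the donors were adult C57BL6/CBA wild-type females of matched age. All groups had the same genotype, and by the labels they differed in the compartment and in no treatment. Each of the 9 arrays held pooled pieces of a single compartment, and every compartment had 3 biological replicates. The labels do not say how many animals entered a pool, so p-values measure the spread between these pools.

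The respiratory chain sits in the inner mitochondrial membrane. Complex I takes electrons from NADH and complex II from succinate, complex III passes them through cytochrome c to complex IV, and complex IV reduces oxygen. The protons pumped on the way drive complex V, the ATP synthase. A sebocyte builds large amounts of lipid and then bursts, the follicle makes the hair shaft and its sheaths, and the interfollicular epidermis makes the cornified skin surface. Some subunits, among them Cox6a2 and Cox8b, are forms best known from muscle and, for Cox8b, brown fat, while Cox4i1 and Cox6a1 are the general forms.

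The array file name in each sample's description named another compartment than the title for all 9 arrays, so the titles were checked with marker genes. The sebocyte list (14 genes measured) was highest on the 3 arrays titled SG, the list for hair shaft and inner root sheath (13 genes) on the 3 titled HF and the suprabasal IFE list (8 genes) on the 3 titled IFE (exact two-sided permutation p = 0.0119 for each, the smallest that 84 splits allow, and adjusted p = 0.0159 over 4 lists). The resting follicle list (12 genes) did not single out the arrays titled HF (exact permutation p = 0.0952, also its adjusted value). The lists were chosen with earlier results of these data known, so these p-values are no independent test of the titles. Not every gene followed its list at an adjusted p under 0.05 in the limma fit used below. For SG against IFE, 12 sebocyte markers were called up and 2 down, with a lowest log2 difference of -1.18. In the suprabasal IFE list, SG had 6 genes called down and 1 up (2.04) against IFE. HF had 5 called down and 1 up (1.49) against IFE. Of all genes, 6.07% were called up and 15.8% down in SG against IFE, and 4.81% and 7.25% in HF. SG replicate 3 carried hair genes, with a hair list value of 0.94 against -1.43 and -1.25 on the other SG arrays. HF replicate 2 had the highest sebocyte value of the HF arrays, 0.22 against -0.39 and -0.30. Array medians ran from 176 to 234 on the deposited linear scale. Results below use the log2 of these values, and a log2 difference of 1 is a doubling.

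Respiratory chain genes stood higher in SG than in either other compartment, by modest amounts. Over the 61 members the median log2 difference was 0.29 against IFE and 0.39 against HF, whereas the median over all genes was -0.06 and -0.02. SG had the highest mean for 44 members. The order SG, then HF, then IFE held for 24 members (39.3%, against 17.4% of all genes), and the order SG, IFE, HF for 20 (32.8%, against 14.2%). In the fit of all genes with limma, 17 members (27.9%) were higher in SG than in IFE at a Benjamini-Hochberg adjusted p under 0.05, where 6.07% of all genes were, and no member was lower, where 15.8% of all genes were. At 2-fold or more 3 were higher, where 2.54% of all genes were. At an unadjusted p under 0.05, in either direction, the share was 41.0% of members (25) and 35.1% of all genes, which lie close together. Against HF, 9 members (14.8%) were higher in SG, where 3.26% of all genes were, and none was lower, where 6.20% of all genes were, and 2 were higher by 2-fold or more, where 1.81% of all genes were. The comparisons share the SG arrays and are not independent of each other. Asked whether a gene differed among the compartments in any direction, the F test called 14 members (23.0%) against 24.5% of all genes, a share close to the background.

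The median deviation of the 61 members from their means over the arrays was 0.07, 0.18 and 0.41 on SG replicates 1 to 3. It was -0.24, -0.02 and -0.14 on the HF arrays and -0.29, -0.07 and 0.06 on the IFE arrays. SG replicate 3 was thus the highest array and IFE replicate 1 the lowest, and SG replicate 1 lay only just above IFE replicate 3. After subtraction of the median over all genes the SG arrays stood at 0.19, 0.23 and 0.37, and the highest other array at -0.05.

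**Figure D1:**
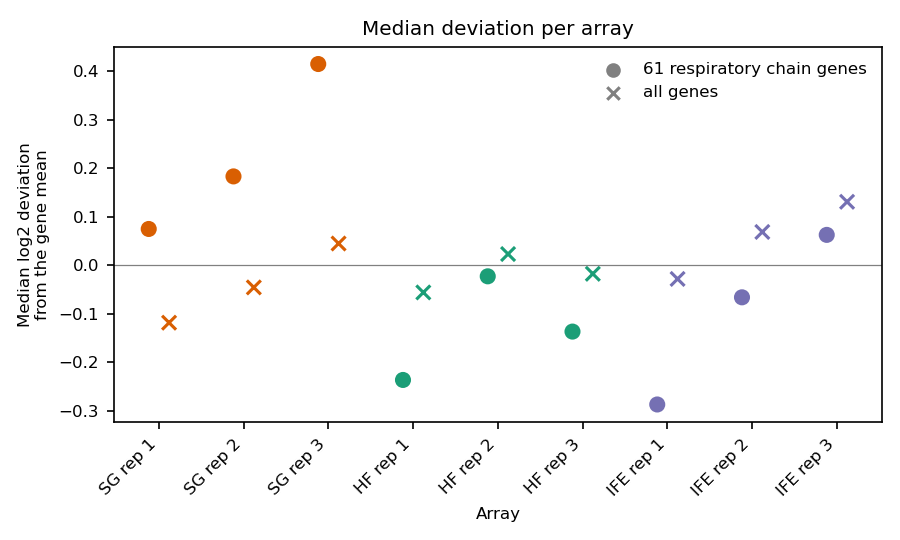
Median log2 deviation from the gene mean on each array (y axis), for the 61 respiratory chain genes (circles) and all 14507 genes (crosses), coloured by compartment. The circles of the SG arrays lie at 0.07 to 0.41 and those of the HF and IFE arrays between -0.29 and 0.06.

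Separation of the arrays gave the same direction. For 22 members all 3 SG arrays lay above all 3 IFE arrays (36.1%, against 13.2% of all genes), and for none below (21.7% of all genes). Against HF, 28 members lay wholly above (45.9%, against 12.1%) and 1 wholly below (17.2% of all genes). That one was Cox5a, a nuclear-encoded subunit of complex IV, at 8.70, 8.65 and 8.93 on the SG arrays and 9.22, 8.98 and 9.35 on the HF arrays, a difference that did not pass the test (-0.43 ± 0.19 SE, adjusted p = 0.216).

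**Figure D2:**
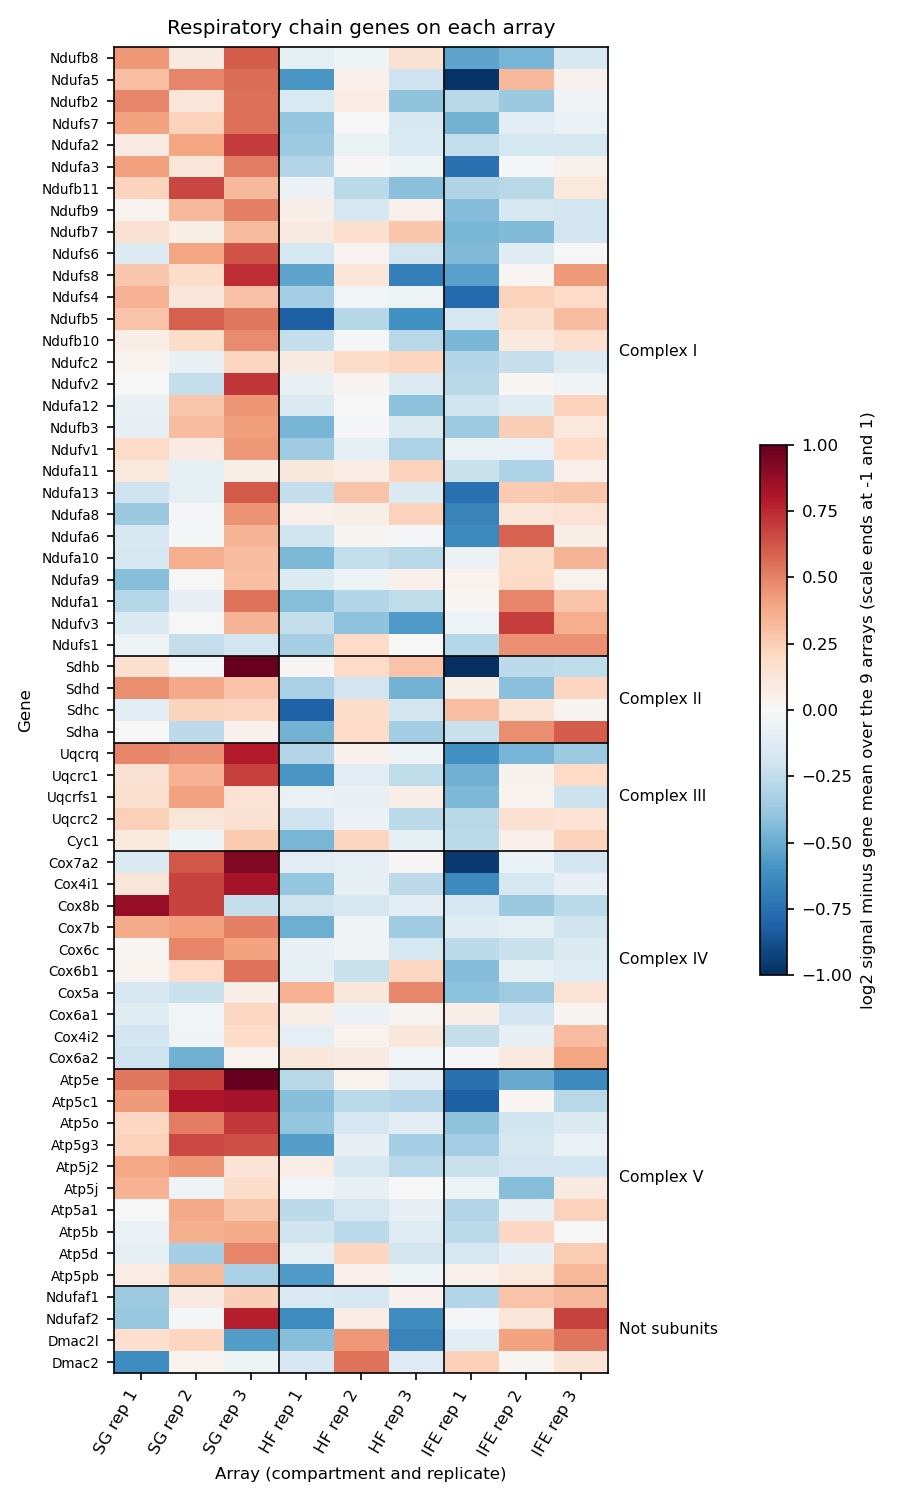
log2 signal of each of the 61 genes (rows, grouped by complex and ordered by the difference between SG and IFE) on each of the 9 arrays (columns), as the deviation from the gene's mean; colours end at -1 and 1. Red cells gather in the SG columns for 44 genes with the highest mean in SG, and the 4 genes that are not subunits show no such block.

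ATP synthase had the largest share of members that passed. Of its 10 members, 5 (50%) stood higher in SG than in IFE and 4 (40%) higher than in HF, where 6.07% and 3.26% of all genes were. None was lower, where 15.8% and 6.20% of all genes were, and the median differences were 0.41 and 0.43. Against IFE complex IV, with as many members, came close at 4 of 10. Atp5e, the epsilon subunit of the central stalk, read 11.42, 11.58 and 11.89 on the SG arrays, 10.61, 10.92 and 10.78 on the HF arrays and 10.14, 10.38 and 10.25 on the IFE arrays. The compartments did not overlap, and SG was 2.59-fold higher than IFE (1.37 ± 0.18 in log2, SE, from 3 arrays each, adjusted p = 0.000306 in the limma fit) and 1.82-fold higher than HF (0.86 ± 0.18, adjusted p = 0.0101). All 5 of its probe sets (the exon-level units of the array) were higher in SG in both comparisons.

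Atp5c1, the gamma subunit that turns inside the catalytic head, read 10.56, 10.95 and 10.97 in SG, 9.72, 9.87 and 9.85 in HF and 9.32, 10.16 and 9.87 in IFE. HF and IFE overlapped with each other and SG lay above both, by 1.04 ± 0.22 over IFE (adjusted p = 0.00541) and by 1.01 ± 0.22 over HF (adjusted p = 0.0121). Its brightest probe set alone gave 0.22 over IFE (adjusted p = 0.538). Fitted singly, its 5 probe sets gave 0.19 to 1.05 over IFE and 0.32 to 1.09 over HF. Only those at 0.72 and 1.05 passed over IFE, and only that at 1.09 over HF (adjusted p = 0.0344, 0.0178 and 0.0348 over all probe sets). The gene value, a median taken on each array, lay near the largest of them. The others stayed below a doubling, although Atp5c1 counts among the 2-fold members in both comparisons. Atp5o, the stalk protein that holds the head in place, was higher by 0.72 ± 0.18 over IFE (adjusted p = 0.0139) and 0.70 ± 0.18 over HF (adjusted p = 0.0303). Its brightest probe set ended the call over IFE. Atp5g3, a gene for the proton-conducting c ring, was higher by 0.70 ± 0.19 over IFE (adjusted p = 0.0204) and 0.84 ± 0.19 over HF (adjusted p = 0.0158). Its brightest probe set gave 0.31 and 0.23 and ended both calls (adjusted p = 0.32 and 0.56), and the mean over probe sets ended that over HF (0.61). Atp5j2, the f subunit of the membrane part, rested on 1 probe set and was higher over IFE by 0.53 ± 0.17 (adjusted p = 0.0404), and its 0.44 over HF did not pass (adjusted p = 0.132). The subunits that form the catalytic head, Atp5a1 and Atp5b, did not pass against IFE (0.26 and 0.24) or HF (0.39 and 0.42). Of the other members, Atp5d lay at 0.02 and Atp5pb at -0.14 against IFE, and Atp5j at 0.29.

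Nuclear genes of the respiratory chain are known to be driven by NRF1, by GABP, an ETS factor, by YY1 and by ERR alpha with its coactivator PGC-1 alpha. RefSeq promoter sequences (GRCm38.p6, 250 bases before to 50 after a gene's start) were matched for 49 of the 61 members, with 54 promoters. Both strands were searched for the palindromic consensus of NRF1, the GABP core CCGGAAG, the YY1 motif AAGATGGCG and the ERR alpha motif TCAAGGTCA. The NRF1 motif was in 3 member promoters (5.56%, against 0.97% of 32851 promoters), the GABP core in 9 (16.7%, against 8.86%), the YY1 motif in 8 (14.8%, against 1.40%) and the ERR alpha motif in 2 (3.70%, against 0.42%). The 8 promoters with the YY1 motif belong to 7 genes, because both promoters of Dmac2, which is not a subunit, hold the same site. Of the 19 members higher in SG in at least 1 comparison, 14 had a promoter sequence. Among their 15 promoters the NRF1 motif was in 0, the GABP core in 4 (Atp5e, Sdhb, Ndufb7 and Sdhd), the YY1 motif in 2 (Atp5j2 and Ndufs7) and the ERR alpha motif in 2 (Atp5g3 and Sdhd). The stretches upstream of the start that hold a match in members higher in SG are shown 5′ to 3′ on the gene's strand, with the match in capitals, so that the motif can be seen in its setting; CTTCCGG and TGACCTTGA are the GABP core and the ERR alpha motif read on the opposite strand. A match is a description of these letters.
Atp5e, chr2:174464124-174464223, minus strand: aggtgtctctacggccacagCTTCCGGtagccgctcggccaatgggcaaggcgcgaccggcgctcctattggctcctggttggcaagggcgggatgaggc
Atp5g3, chr2:73911327-73911398, minus strand: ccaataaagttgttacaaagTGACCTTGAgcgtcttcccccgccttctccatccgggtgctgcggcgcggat
Sdhd, chr9:50603850-50603915, minus strand: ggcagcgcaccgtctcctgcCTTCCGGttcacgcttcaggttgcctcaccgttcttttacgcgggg
Ndufb7, chr8:83566718-83566757, plus strand: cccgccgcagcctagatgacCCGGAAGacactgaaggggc

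In complex III, 1 of 5 members (20%) passed upward against IFE and against HF, where 6.07% and 3.26% of all genes did. All 5 differences were above 0 in both comparisons, where 44.9% and 47.8% of all genes lay above 0. Uqcrq, a small subunit close to the ubiquinone site, read 11.39, 11.36 and 11.69 in SG, 10.60, 10.94 and 10.85 in HF and 10.29, 10.43 and 10.54 in IFE, with no overlap between compartments. SG was 2.08-fold higher than IFE (1.06 ± 0.17, adjusted p = 0.00124) and 1.60-fold higher than HF (0.68 ± 0.17, adjusted p = 0.0286). The mean over its probe sets in place of the median lowered these to 0.70 and 0.31, and neither then passed (adjusted p = 0.0986 and 0.547). The core proteins Uqcrc1 and Uqcrc2 lay at 0.48 and 0.16 against IFE and at 0.71 and 0.35 against HF, and Uqcrfs1, the Rieske iron-sulfur protein, at 0.44 and 0.26, and these did not pass. Cyc1, cytochrome c1, read 9.54, 9.40 and 9.70 in SG, 8.98, 9.66 and 9.35 in HF and 9.18, 9.49 and 9.67 in IFE, and the 3 compartments overlapped (0.10 ± 0.21 against IFE and 0.22 ± 0.21 against HF, adjusted p = 0.763 and 0.59).

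Complex IV held both general and tissue-restricted subunits. Against IFE 4 of 10 members (40%, against 6.07% of all genes) were higher in SG, with a median of 0.49. Against HF 2 were (20%, against 3.26% of all genes), with a median of 0.35. Cox4i1, the general form of subunit 4, read 12.25, 12.80 and 12.96 in SG, 11.74, 12.04 and 11.86 in HF and 11.49, 11.95 and 12.04 in IFE. It was higher by 0.84 ± 0.22 over IFE (adjusted p = 0.0182) and 0.79 ± 0.22 over HF (adjusted p = 0.0447). Both calls ended with its brightest probe set. Cox7b, on 1 probe set, was higher by 0.56 ± 0.17 over IFE (adjusted p = 0.0312) and 0.72 ± 0.17 over HF (adjusted p = 0.0184), and Cox6c by 0.51 ± 0.17 over IFE (adjusted p = 0.0491). The call of Cox6c ended with its brightest probe set. Cox7a2, the general form of subunit 7a, was higher over IFE by 0.87 ± 0.29 (adjusted p = 0.0478), although its arrays overlapped and its probe sets disagreed, 3 of 4 being higher in SG and the fourth passing in the opposite direction (-1.31).

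On the deposited scale, with the median over probe sets and no array weights, the restricted forms Cox4i2, Cox6a2 and Cox8b did not pass in any comparison. Cox4i2, the lung and hypoxia form of subunit 4, differed by -0.01 ± 0.19 between SG and IFE and by -0.03 ± 0.19 between SG and HF, but it had 2 probe sets and the brighter was lower in SG than in IFE (-0.76, adjusted p = 0.0356 over all probe sets). Cox6a2, the heart and muscle form of subunit 6a, read 6.57, 6.29 and 6.81 in SG and 6.75, 6.87 and 7.17 in IFE (-0.37 ± 0.19, adjusted p = 0.172). With the brightest probe set Cox6a2 was called lower in SG than in IFE and in HF, and with array weights lower than in IFE. Its general counterpart Cox6a1 differed by 0.05 ± 0.16 between SG and IFE and by 0.01 ± 0.16 between SG and HF. Cox6b1 lay at 0.47 ± 0.19 over IFE and 0.29 ± 0.19 over HF and did not pass. Cox8b, the muscle and brown fat form of subunit 8, read 8.09 and 7.90 on SG replicates 1 and 2 and 6.98 on SG replicate 3, the array that carried hair genes, against 7.01 to 7.12 in HF and 6.85 to 7.05 in IFE. The groups overlapped and the difference from IFE did not pass (0.71 ± 0.25, adjusted p = 0.0625), but it did with quantile normalization (0.91, adjusted p = 0.0384) and median centring (0.95, adjusted p = 0.0271), under which Cox6a1 did not. Of 12 skeletal muscle markers measured none passed in any comparison, where 3.26% to 15.8% of all genes passed in a given direction. Their summed log2 level was 10.92 to 10.98 in SG, 10.98 to 11.03 in HF and 10.79 to 10.92 in IFE.

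**Figure D3:**
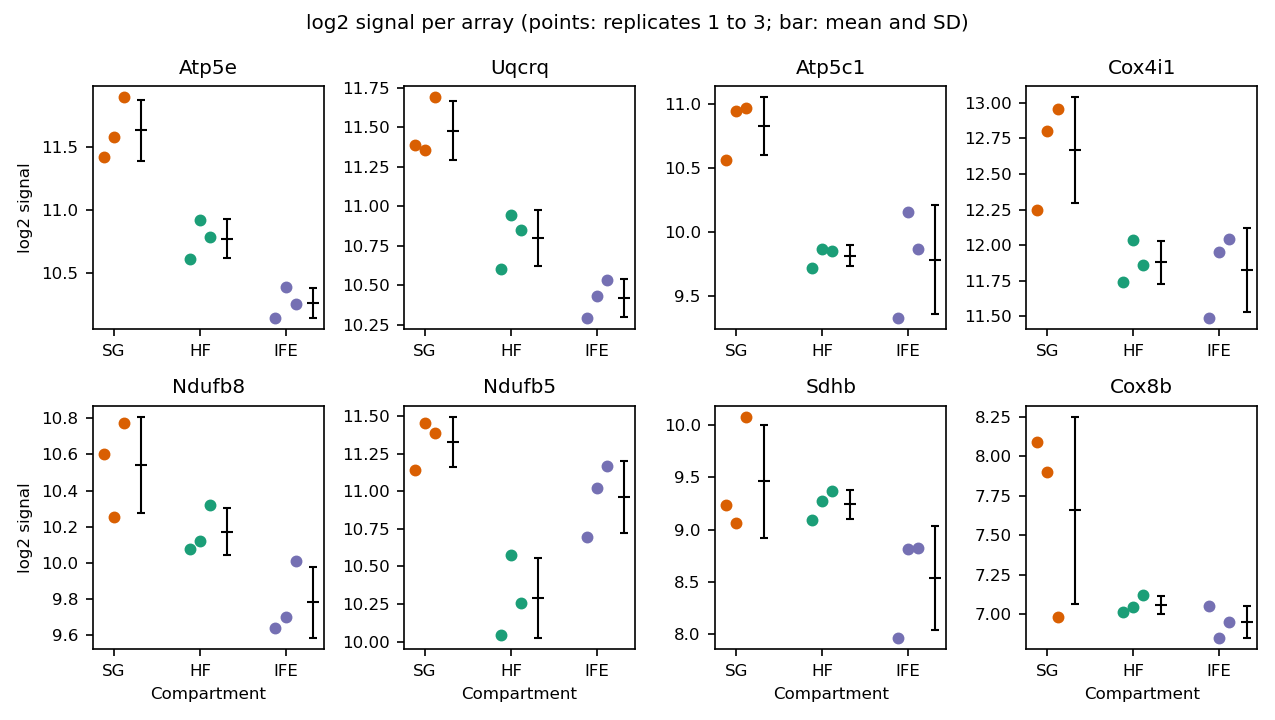
log2 signal (y axis, not starting at 0) of 8 genes on every array by compartment, with the mean and SD of the 3 replicates beside the points. SG lies above HF and IFE for Atp5e, Uqcrq, Atp5c1 and Cox4i1, HF lies lowest for Ndufb5, and SG replicate 3 of Cox8b sits at 6.98 among the HF and IFE arrays.

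Complex I had 28 subunits measured, of which 6 stood higher in SG than in IFE and 1 higher than in HF, and none was lower. The 6 are 21.4% of the subunits, against 6.07% of all genes, while the 1 is 3.57%, near the 3.26% of all genes and so at the background. Their medians were 0.29 and 0.40. Ndufb8, an accessory subunit of the membrane arm, read 10.60, 10.25 and 10.77 in SG, 10.08, 10.12 and 10.32 in HF and 9.64, 9.70 and 10.01 in IFE. SG lay above IFE without overlap (0.76 ± 0.19, adjusted p = 0.0129) and overlapped with HF. All 7 of its probe sets were higher in SG than in IFE. Ndufb7, another membrane arm subunit, stood at 9.90, 9.81 and 10.06 in SG and 9.84, 9.92 and 10.02 in HF against 9.29, 9.31 and 9.56 in IFE. Both SG and HF were higher than IFE by 0.54 ± 0.16 (adjusted p = 0.0324 and 0.0497), and both calls ended with its brightest probe set.

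Ndufs7, a core subunit that carries the last iron-sulfur cluster before ubiquinone, was higher in SG than in IFE by 0.61 ± 0.18 (adjusted p = 0.0341), with all 9 probe sets in that direction. It was the only core subunit of 5 measured to pass there. The largest core subunit, Ndufs1, lay at -0.37 ± 0.23 with the highest values on IFE replicates 2 and 3, and Ndufs8, Ndufv1 and Ndufv2 at 0.43, 0.22 and 0.26. Ndufb2, Ndufa2 and Ndufb9 were higher in SG than in IFE by 0.61, 0.59 and 0.56 (adjusted p = 0.0385, 0.0398 and 0.0433), and the brightest probe set of Ndufb9 gave 0.16 (adjusted p = 0.591). The remaining 22 complex I subunits did not pass, 18 of them above 0. Ndufb5 was set apart by the follicle. It read 11.14, 11.46 and 11.39 in SG, 10.04, 10.57 and 10.26 in HF and 10.69, 11.02 and 11.17 in IFE, and SG was 2.05-fold higher than HF (1.04 ± 0.20, adjusted p = 0.00621) but overlapped with IFE (0.37 ± 0.20, adjusted p = 0.208). The 2 assembly factors of complex I, Ndufaf1 and Ndufaf2, lay at -0.12 and -0.13 against IFE, and Dmac2l and Dmac2 both at -0.34, and none of the 4 passed in any comparison.

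The subunits of complex II, which is also the succinate dehydrogenase of the citric acid cycle, went different ways. Sdhb, the iron-sulfur subunit, read 9.24, 9.07 and 10.08 in SG, 9.09, 9.27 and 9.37 in HF and 7.96, 8.82 and 8.83 in IFE. It was higher in SG than in IFE (0.93 ± 0.29, adjusted p = 0.0390, 9 of 9 probe sets) and the difference from HF did not pass (0.22 ± 0.29). Sdhd, a membrane anchor, read 8.56, 8.47 and 8.38 in SG, 7.77, 7.90 and 7.62 in HF and 8.15, 7.68 and 8.31 in IFE, and was higher in SG than in HF (0.70 ± 0.19, adjusted p = 0.0371), a call that ended with its brightest probe set (0.28, adjusted p = 0.584) and with the mean over probe sets (0.41). Sdhc, the other anchor, lay at -0.04 ± 0.24 against IFE and 0.38 ± 0.24 against HF. The flavoprotein Sdha lay at -0.36 ± 0.24 against IFE and 0.14 ± 0.24 against HF, with its highest values on IFE replicates 2 and 3 (9.98 and 10.12).

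**Figure D4:**
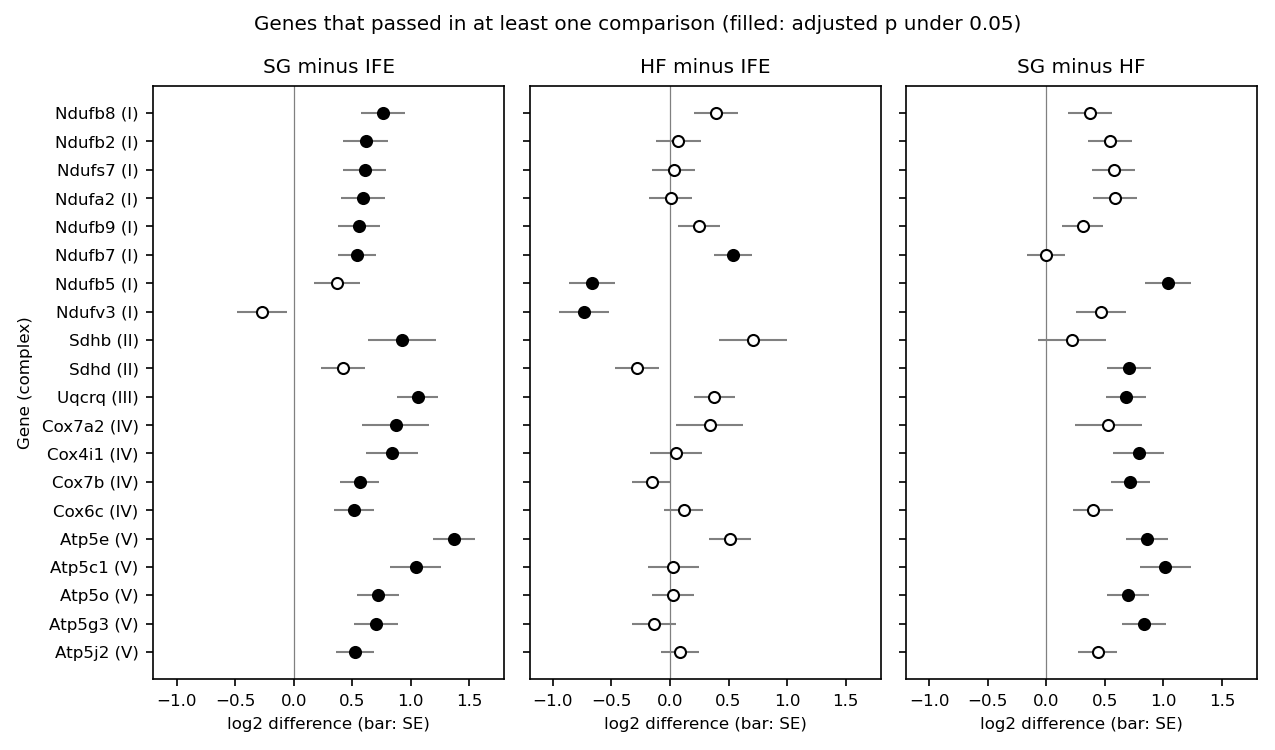
log2 difference (points) with its SE (bars) in the 3 comparisons for the 20 genes that passed in at least 1 of them; filled points passed at an adjusted p under 0.05. Filled points lie above 0 in both comparisons with SG, while between HF and IFE 1 lies above and 2 below.

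Between HF and IFE the genes showed no common shift. The median difference was -0.03, against -0.07 over all genes, and 29 of 61 members lay above 0. It was 0.18 with quantile normalization, which called 7 members higher and 0 lower (6.1% and 5.36% of all genes), and 0.08 with median centring, which called 4 higher and 2 lower (6.62% and 6.47% of all genes). These scalings moved the median over all genes by 0.09 and 0.11, and the share of higher genes among all called from 39.9% to 53.2% and 50.6%. Ndufb7 was the only member higher in HF (1.64%, against 4.81% of all genes). Ndufb5 and Ndufv3, a small subunit of the NADH-oxidising arm, were lower (3.28%, against 7.25% of all genes). Ndufv3 read 9.38, 9.22 and 9.05 in HF and 9.56, 10.31 and 9.98 in IFE (-0.74 ± 0.22, adjusted p = 0.0454), and all 7 of its probe sets were lower in HF. Ndufb5 was lower by the test as well (-0.67 ± 0.20, adjusted p = 0.0451). None of the 3 calls held without each array in turn (adjusted p up to 0.195), and those of Ndufb5 and Ndufv3 ended with quantile normalization. All 3 ended with the brightest probe set. For 8 members the HF arrays lay wholly above the IFE arrays (13.5% of all genes did so) and for 5 wholly below (19.3%).

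How many calls were made depended on single arrays. Against IFE, 4 calls held without each of the 9 arrays: Atp5e, Uqcrq, Atp5c1 and Atp5o (adjusted p up to 0.0438). Those of Atp5c1 and Atp5o ended with the brightest probe set, and that of Uqcrq with the mean over probe sets. Ndufb8 was not called without IFE replicate 2 (adjusted p = 0.0541), Cox4i1 without SG replicate 2 or SG replicate 3 (up to 0.0648), and Atp5g3 without SG replicate 2 or IFE replicate 2 (up to 0.074). The other 10 calls ended without most arrays, with an adjusted p of at most 0.158. Cox6c, Cox7a2, Ndufa2 and Ndufb9 held only without SG replicate 1, Atp5j2 only without SG replicate 3, and Sdhb only without SG replicate 2 or IFE replicate 3. Ndufb2 held only without SG replicate 2, HF replicate 2 or HF replicate 3, Ndufs7 without SG replicate 2, HF replicate 1 or HF replicate 2, Ndufb7 without IFE replicate 3 or HF replicate 1 or 2, and Cox7b without IFE replicate 1 or HF replicate 1 or 2. The count was lowest, 5 (8.2%), without IFE replicate 2, where 3.68% of all genes were called higher. It was 8 (13.1%) without SG replicate 2, SG replicate 3, HF replicate 3 or IFE replicate 1, against 4.23% to 6.1% of all genes. Without HF replicate 1 or IFE replicate 3 it was 10 (16.4%, against 5.35% and 4.38%), and without HF replicate 2 it was 11 (18.0%, against 5.67%). Without SG replicate 3 and HF replicate 2 together it was 5 (8.2%, against 5.34%). Against HF, the call of Ndufb5 held without each array, although not with the mean over its probe sets or the brightest of them (0.50 at the lowest). With the last letter of the array name as a block none of the 9 calls against HF was made (0.82% of all genes were called higher), and Ndufb5 then lay at 1.01 (adjusted p = 0.0762). SG replicate 1, HF replicate 1 and IFE replicate 3 each had a letter of their own. That fit therefore compared the compartments on the remaining arrays alone, and calls can end for lack of arrays. Apart from Ndufb5, the 8 calls against HF all ended without HF replicate 1, and that of Atp5e held without each of the other arrays. The count fell to 1 without HF replicate 1 (1.64%, against 1.68% of all genes, so at the background). It fell to 2 (3.28%) without SG replicate 2 or HF replicate 3, against 1.85% and 1.48% of all genes. The median difference over the members stayed above 0 in each of these fits, at 0.17 to 0.40 against IFE and 0.32 to 0.44 against HF.

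In both comparisons with SG the size of the members' shift depended on how the arrays were scaled, while their median stayed above 0. Quantile normalization moved the median over all genes between SG and IFE by 0.22 and median centring by 0.24, and the share of higher genes among all called went from 27.8% to 59.5% and 59.2%. The members' median became 0.69 and 0.53, and 38 and 32 of the 61 members were called higher in SG than in IFE (13.5% and 15.6% of all genes) with none lower (9.23% and 10.7% of all genes). Relative to the median over all genes the members stood 0.36 higher as deposited and 0.53 higher with quantile normalization. Median centring shifts every gene on an array by the same constant. The members' median therefore had to move with that of all genes, and the 0.36 could not change under it. Against HF the 2 scalings moved all genes by 0.14 each, called 20 and 19 members higher (7.33% and 6.32% of all genes) and none lower (5.69% and 5.35% of all genes), and the share of higher genes among all called went from 34.5% to 56.3% and 54.2%.

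**Figure D5:**
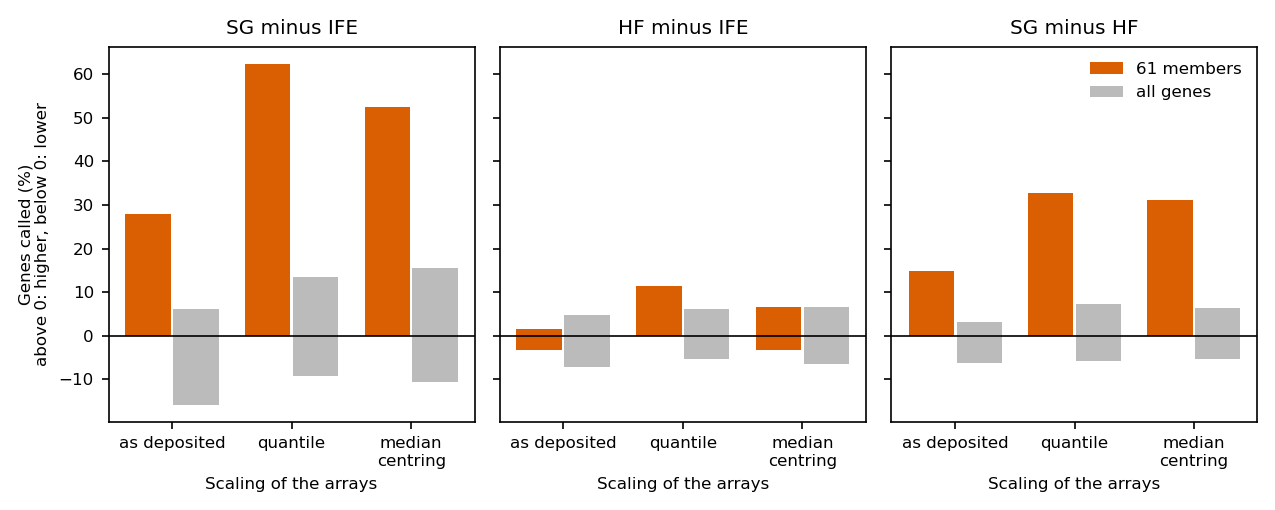
Percent of genes called higher (above 0) and lower (below 0) at an adjusted p under 0.05 among the 61 members and among all genes, in each comparison and under 3 scalings of the arrays. With SG in the comparison no member falls below 0 under any of these scalings, while 15.8% of all genes did so against IFE as deposited.

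Counted one by one, 270 of the members' 372 probe sets stood higher in SG than in IFE and 308 higher than in HF. The share of all probe sets above 0 was not counted, and probe sets of the same gene are not independent. In a fit over all 146964 named probe sets, 36 passed upward against IFE (4.39% of all probe sets did so) and 4 downward (16.7%), the latter being 1 probe set each of Cox4i2, Cox6a2, Cox7a2 and Ndufs1. Against HF 10 passed upward (1.71%) and 1 downward (4.92%), and between HF and IFE 3 upward (3.32%) and 1 downward (4.8%). With each gene represented by its brightest probe set, 9 members (14.8%, against 10.7% of all genes) were higher in SG than in IFE, a share nearer the background than with the median over probe sets, and 2 (3.28%, against 15.2%) were lower, namely Cox4i2 and Cox6a2.

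Neighbouring mitochondrial pathways were followed with gene lists, whose medians below stand beside the -0.06 of all genes between SG and IFE. Of all genes, 6.07% were called higher and 15.8% lower in SG than in IFE, and 3.26% and 6.20% than in HF. Electron carriers and adenine nucleotide exchange had 6 of 23 genes (26.1%) higher in SG than in IFE and none lower, with a median of 0.20. The 3 with the smallest p were the uncoupling protein Ucp2 (1.68 ± 0.22, adjusted p = 0.000344), also higher in HF than in IFE (1.57 ± 0.22), and the ubiquinone synthesis genes Coq9 (0.97) and Coq6 (0.94). Mitochondrial fatty acid oxidation had 4 of 15 higher (26.7%) and 1 lower (6.67%), with a median of 0.53. The dienoyl-CoA reductase Decr1 read 9.53, 9.59 and 9.08 in SG, 6.30, 7.59 and 6.63 in HF and 6.34, 6.61 and 7.05 in IFE (2.73 ± 0.31 over IFE, adjusted p = 0.000125, and 2.56 ± 0.31 over HF). Its brightest probe set gave 0.85 and 0.95, which still passed (adjusted p = 0.0104 and 0.0113). The carnitine carrier Slc25a20 was higher by 1.06, and Cpt1a, which commits fatty acids to oxidation, was lower (-1.19). Against HF that list had 6 higher (40%, against 3.26% of all genes), among them Decr1, Echs1 (1.56) and Acaa2 (1.16), and 1 lower (6.67%, against 6.20%). The citric acid cycle list split, with 4 of 15 higher and 4 lower (26.7% each) in SG than in IFE and a median of -0.17. The pyruvate dehydrogenase subunit Pdha1 rose (1.06) and the 2-oxoglutarate dehydrogenase Ogdh (-0.83) and Sucla2 (-0.96) fell. Ogdh was not called with quantile normalization (-0.41, adjusted p = 0.081) or with the array name's last letter as a block (adjusted p = 0.114), and Sucla2 was not called when SG replicate 1, IFE replicate 2 or IFE replicate 3 was dropped (0.082 at most after adjustment) or with quantile normalization.

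Assembly factors outside the 61 had 1 of 32 higher in SG than in IFE (3.125%, against 6.07% of all genes). It was Acad9 (1.05 ± 0.23, adjusted p = 0.00765), an acyl-CoA dehydrogenase relative needed for complex I, which was also higher in SG than in HF (1.59 ± 0.23). The list's median was 0.07. Of its genes 2 were lower (6.25%, against 15.8% of all genes). These were Lrpprc (-0.95), which keeps mitochondrial messages stable, and Cox11 (-0.63), although the brightest probe set of each pointed the other way (0.34 and 0.27). Cox11 was not called when SG replicate 1, SG replicate 2 or IFE replicate 3 was dropped (0.123 at most after adjustment). Of 42 mitochondrial ribosomal protein genes 3 were higher (7.14%, near the 6.07% of all genes) and 1 lower (2.38%, against 15.8%), with a median of 0.08. Of 19 regulators of mitochondrial biogenesis, with a median of -0.08, 1 was higher and 1 lower in SG than in IFE (5.26% each, against 6.07% and 15.8%). Ppargc1a, which encodes PGC-1 alpha, was higher in SG than in IFE (0.78 ± 0.25, adjusted p = 0.0452) and higher in HF than in IFE (1.07 ± 0.25, adjusted p = 0.0156). Yy1 was lower in SG than in IFE (-0.73 ± 0.18). Dropping SG replicate 2 or 3, HF replicate 3 or IFE replicate 2 or 3 removed the first Ppargc1a call (to 0.156 at most after adjustment), and dropping HF replicate 1 or 3 or IFE replicate 2 or 3 removed the second (to 0.0804). Yy1 was not called without IFE replicate 2 or 3 (to 0.0583) or with quantile normalization. The glycolysis and lactate list had 3 of 22 higher and 3 lower in SG than in IFE (13.6% each, against 6.07% and 15.8% of all genes). Its median was -0.13, with the lactate dehydrogenase subunit Ldhb (1.60) and the kinase Pdk4 (1.69) higher and the phosphofructokinase Pfkp (-1.26) lower. The brightest probe set of Pdk4 gave -0.14. Import and dynamics genes had 0 of 17 higher and 1 lower (5.88%), and cytosolic ribosomal proteins 0 of 10 higher and 1 lower (10%). Of all genes 6.07% were higher and 15.8% lower. Against HF all of these lists had a median above 0, beside 0.39 for the members and -0.02 for all genes. The medians were 0.49 for fatty acid oxidation, 0.45 for cytosolic ribosomal proteins, 0.36 for electron carriers and 0.25 for mitochondrial ribosomal proteins. The other lists had medians of 0.03 to 0.19. No gene of either ribosomal list passed in that comparison, where 3.26% of all genes were higher and 6.20% lower.

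Markers of other cells moved with some of these comparisons. Sebocyte markers had a summed log2 level of 14.79 to 15.24 in SG, 12.62 to 13.37 in HF and 11.54 to 12.04 in IFE, which is the difference that defines the compartments. Of 9 immune cell markers 1 was higher in SG than in IFE (11.1%, against 6.07% of all genes) and 5 higher than in HF (55.6%, against 3.26%). Their summed levels were 10.76 to 10.94 in SG, 9.75 to 10.02 in HF and 10.05 to 10.59 in IFE. Of 9 adipocyte markers 3 were higher in SG than in IFE (33.3%, against 6.07% of all genes), with a median over the list of 0.50. None was higher than in HF (3.26% of all genes were), where the median was 0.05. Their summed levels, 10.41 to 10.83 in SG, 11.92 to 12.44 in HF and 9.91 to 10.18 in IFE, do not follow most markers: Fabp4 differed between HF and IFE by 7.14 and the list's median by 0.23. Of 6 melanocyte markers 2 passed as higher in SG than IFE (33.3%, against 6.07% of all genes). All 6 lay above 0 (median 0.77), where 44.9% of all genes did. Against HF none was higher (3.26% of all genes), 1 was lower (16.7%, against 6.20%) and the median was 0.73. On the arrays the melanocyte list stood at -0.33, 0.75 and 0.95 in SG, -0.25, -0.07 and 0.00 in HF and -0.74, -0.55 and 0.01 in IFE, with SG replicate 3 the highest and IFE replicate 1 the lowest, as for the members. No marker value was at 0 on this scale, and the part of immune cells, adipocytes and melanocytes in the respiratory chain values was not tested. In pooled tissue, more cells rich in mitochondria and more RNA per cell cannot be told apart.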

How the data were processed

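Per the submitters' processing notes, the arrays were processed with RMA in Affymetrix Power Tools, with mm9 as the genome build. The authors deposited a linear intensity per exon-level probe set (2.5 to 30815 over 154736 probe sets and 9 arrays), and whether probe sets had been filtered is not given in the sources used here. RNA had been amplified before hybridization, per the labels' protocols. The number of arrays, 3 per compartment, limits the precision.

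Here log2 of the deposited intensity was taken with no further normalization, and the median was formed over the probe sets of each gene. Genes were named from the platform annotation for 146964 probe sets with 1 symbol, while 1060 with several and 6712 with none were left out. Of 97 protein-coding genes of these names in RefSeq, 32 had no named probe set and were not analysed here. Compartments were compared with limma 3.58.1 in R 4.3.3 (1 mean per compartment, all 9 arrays, empirical Bayes, Benjamini-Hochberg over 14507 genes), and the code was tested on simulated data. A gene passed at an adjusted p under 0.05. Groups came from the sample titles, which number the replicates 1 to 3.

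The members and lists were chosen with earlier results of these data known. Named genes were the members that passed, with array values for up to 4 per complex and comparison, members with tissue-restricted counterparts, the succinate dehydrogenase subunits, Cyc1, and up to 3 passing genes of each other list and comparison. Other members named were chosen after their values were seen. Alternatives changed the scaling, the gene summary, the filter on dim genes, the variance model, array weights, blocks, the arrays included, the symbols and the fold required.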

Additional observations from a re-analysis of the deposited data

How the results depend on the processing

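Of the 17 members higher in SG than in IFE, Atp5e alone passed under each of the 20 alternatives run. Shares in brackets are of all genes called under the same setting. The count of higher members was 7 (3.12%) with the array name's last letter as a block, 38 (13.5%) with quantile normalization, 32 (15.6%) with median centring, 9 (10.7%) with the brightest probe set, 7 (4.37%) with only the 2 groups compared, 3 (2.54%) at 2-fold, and 5 (5.34%) without SG replicate 3 and HF replicate 2, an alternative chosen after seeing the data. Lower members numbered 2 (15.2%) with the brightest probe set and 1 (23.2%) with array weights, Cox6a2. The median was 0.49 with the letter block, 0.69 with quantile normalization and 0.53 with median centring. Leaving out 1 array gave 5 to 12 higher (3.68% to 6.1%), 0 to 1 lower (9.46% to 20.7%) and a median of 0.17 to 0.40. Between SG and HF the higher count was 0 (0.82%) with the letter block, 20 (7.33%) with quantile normalization, 19 (6.32%) with median centring, 5 (4.15%) with the brightest probe set, 17 (5.79%) with array weights, 5 (3.36%) without SG replicate 3 and HF replicate 2, and 2 (1.81%) at 2-fold, and 1 member, Cox6a2, was lower (7.3%) with the brightest probe set. Leaving out 1 array gave 1 to 13 higher (1.48% to 4.03%) and a median of 0.32 to 0.44. Between HF and IFE the higher count was 7 (6.1%) with quantile normalization, 4 (6.62%) with median centring, 2 with the brightest probe set (6.37%) or array weights (9.0%), and 0 (at least 2.76% in each fit at any fold) with the letter block, the mean over probe sets, the trended robust model, only the 2 groups compared, without SG replicate 3 and HF replicate 2, or at 2-fold. The lower count was 8 (20.9%) with array weights and 1 (10.1%) with the mean over probe sets. It was 0 (at least 1.79% in each fit at any fold) with the letter block, quantile normalization, the brightest probe set or at 2-fold. The median was 0.18 with quantile normalization. Leaving out 1 array gave 0 to 1 higher (3.05% to 5.46%), 0 to 3 lower (3.45% to 13.1%) and a median of -0.16 to 0.07. The letter block also compared fewer arrays, because SG replicate 1, HF replicate 1 and IFE replicate 3 each had a letter of their own. The cause of these changes was not tested.

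Shares in brackets are again of all genes. With the replicate block, 17 members (6.77%) were higher and 0 (17.7%) lower between SG and IFE. Between HF and IFE 1 (5.22%) was higher and 2 (8.98%) lower, and between SG and HF 10 (4.04%) were higher and 0 (7.2%) lower. The calls of Cox6c and Ppargc1a between SG and IFE ended under this block. The labels give the numbers no shared animal or day, and deviations of same-numbered arrays correlated at -0.02 to 0.23 over 9 pairs, against -0.16 to 0.11 over the other 18. The brightest probe set reversed the sign of Cox11 (0.27), Lrpprc (0.34) and Mrpl17 (0.30) between SG and IFE and of Pdk4 between SG and IFE (-0.14) and SG and HF (-0.023). Over the named members, taken gene by gene in each comparison, 1310 values under the alternatives kept their side and direction. Of the rest, 216 lost the call, 45 gained one and 103 changed sign where no call had been made.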
